A study of Rattus norvegicus with 21 samples.

Results

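The genes described here are the enzymes of the Golgi apparatus that trim, extend, sialylate, fucosylate and sulfate the sugar chains of secreted proteins. They were taken by gene symbol, as all genes of the array annotation whose symbol begins with Man1a, Man1b, Man1c, Man2a, Mgat, Galnt, B4galnt, B4galt, B3gnt, St3gal, St6gal, St8sia, Fut or Chst. The choice went by symbol alone, but it was made with earlier results of these data known. It gave 84 genes of the 14506 genes with a symbol of their own, measured by 90 of the 29214 probe sets. Where a gene had more than 1 probe set, the brightest on average was read. The 84 fell into 11 families, namely 6 alpha-mannosidases, 8 N-glycan branching GlcNAc transferases (Mgat), 16 polypeptide GalNAc transferases (Galnt), 2 beta-1,4 GalNAc transferases (B4galnt), 7 beta-1,4 galactosyltransferases (B4galt), 8 beta-1,3 GlcNAc transferases (B3gnt), 6 alpha-2,3, 6 alpha-2,6 and 6 alpha-2,8 sialyltransferases, 8 fucosyltransferases (Fut) and 11 carbohydrate sulfotransferases (Chst).

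MENX rats are homozygous for a mutation of Cdkn1b, the gene of the cell cycle inhibitor p27, and develop pituitary adenomas of mainly gonadotroph origin. RNA of 16 macrodissected pituitary lesions of such rats and of 5 normal pituitaries of wildtype rats was measured with the Affymetrix Rat Gene 1.0 ST array, on 21 arrays. All rats were of the mixed background Sprague–Dawley white eye/Wistar–Kyoto, and the labels name no treatment. The lesions carry 9 sample numbers, and lesions of the same number were averaged, so n = 9 for adenomas and n = 5 for wild-type pituitaries. Of the adenoma numbers, 6 came from female and 3 from male rats of 7 to 12 months, and of the wild-type pituitaries 2 came from female and 3 from male rats, all of 6 months. No mutant rat was as young as the wild-type rats, so genotype and age cannot be told apart. The wild-type gland holds all pituitary cell types while the adenomas derive mainly from one, and in such bulk samples fewer cells of a type and less RNA per cell cannot be told apart.

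Values are log2 expression levels, and a difference of 1 is a factor of 2. A gene was called when limma gave it an adjusted p under 0.05, with Benjamini-Hochberg adjustment across the whole array. Values ran from 2.01 to 14.09, array medians from 6.36 to 6.53 and correlations between arrays from 0.941 to 0.994. Cdkn1b mRNA, the product of the mutated gene, was at 8.91 ± 0.19 in wild-type pituitaries and at 9.23 ± 0.17 in adenomas (SD, n = 5 and 9), with a log2 fold change of 0.33 (adjusted p = 0.0324, lost where any of wild-type pituitaries 2 and 4 and adenomas 3 and 7 was left out, at 0.26 to 0.32). One lesion stood apart from the others: lesion 5, one of the 3 lesions of adenoma 3, correlated at most at 0.980 with any other lesion, while each of the other 15 reached at least 0.989 with another lesion. Its values are given in a paragraph of their own, and without it the same 20 genes were called in the same directions.

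As background, N-glycans are attached to proteins in the endoplasmic reticulum and reach the Golgi as high-mannose chains. Golgi mannosidases trim them, Mgat enzymes start the antennae, B4galt and B3gnt enzymes extend these by galactose and GlcNAc, and sialyl- and fucosyltransferases cap them. O-glycans are started on serine and threonine by Galnt enzymes. The pituitary is known for an ending of its own. On lutropin, thyrotropin and proopiomelanocortin a B4galnt enzyme adds GalNAc in place of galactose, which gives the structure called lacdiNAc, and Chst8 or Chst9 then sulfates this GalNAc, which shortens the life of the hormone in the blood.

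Of the 84 enzymes, 11 were called higher and 9 lower in the adenomas, and 64 were not called, 16 of these with an unadjusted p under 0.05. The share called higher was 13.1% beside 8.49% of all probe sets and 12.1% of all genes at 1 probe set each, and the share called lower was 10.7% beside 9.06% and 9.7%, so the number of calls was near the background in both directions. The sizes were less near it. Over 2-fold higher were 7 enzymes (8.33%, beside 1.43% of all probe sets and 2.14% of genes), and 1 was over 2-fold lower (1.19%, beside 1.05% and 1.14%). In 6 enzymes all 9 adenoma values lay above all 5 wild-type values, which 2.66% of all probe sets and 3.91% of genes showed, and in 1 they all lay below, as in 2.16% and 2.39%. The median log2 fold change was -0.00017, beside -0.0346 over all probe sets and -0.0099 over all genes. The median of its absolute size was 0.209, beside 0.158 and 0.173.

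Higher were Man2a1, St6gal2, St8sia5, B4galt4, B4galt1, Fut4, Man1a1, B3gnt2, Mgat2, St6galnac6 and B4galt7, and lower were Mgat4a, Galnt18, Galnt13, St8sia3, Galnt14, B4galnt4, Man2a2, Fut10 and B3gnt6. The counts by family given below are small, and stand beside 12.1% of all genes called higher and 9.7% called lower. The labels' sample numbers begin with 08 or 09, which leaves 2 wild-type pituitaries against 5 adenomas for 08 and 3 against 4 for 09. All 20 called enzymes kept their sign within each prefix, while 3 were called higher and 2 lower within 08 (Man2a1, St6gal2, St8sia5, Galnt14 and Galnt18). Within 09, 10 of the 20 were still called in the same direction, and the calls over all 84 were 9 higher and 6 lower. B4galt1, Fut4, Man1a1 and Man2a2 were among those called within neither prefix. The sources used here do not say what the prefix stands for. The methods' t-test takes single lesions as independent, although several lesions carry the same sample number. It called all 20 and also Mgat1, Fut11 and B4galt5 higher and St3gal1, St8sia1 and Galnt9 lower.

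**Figure D1:**
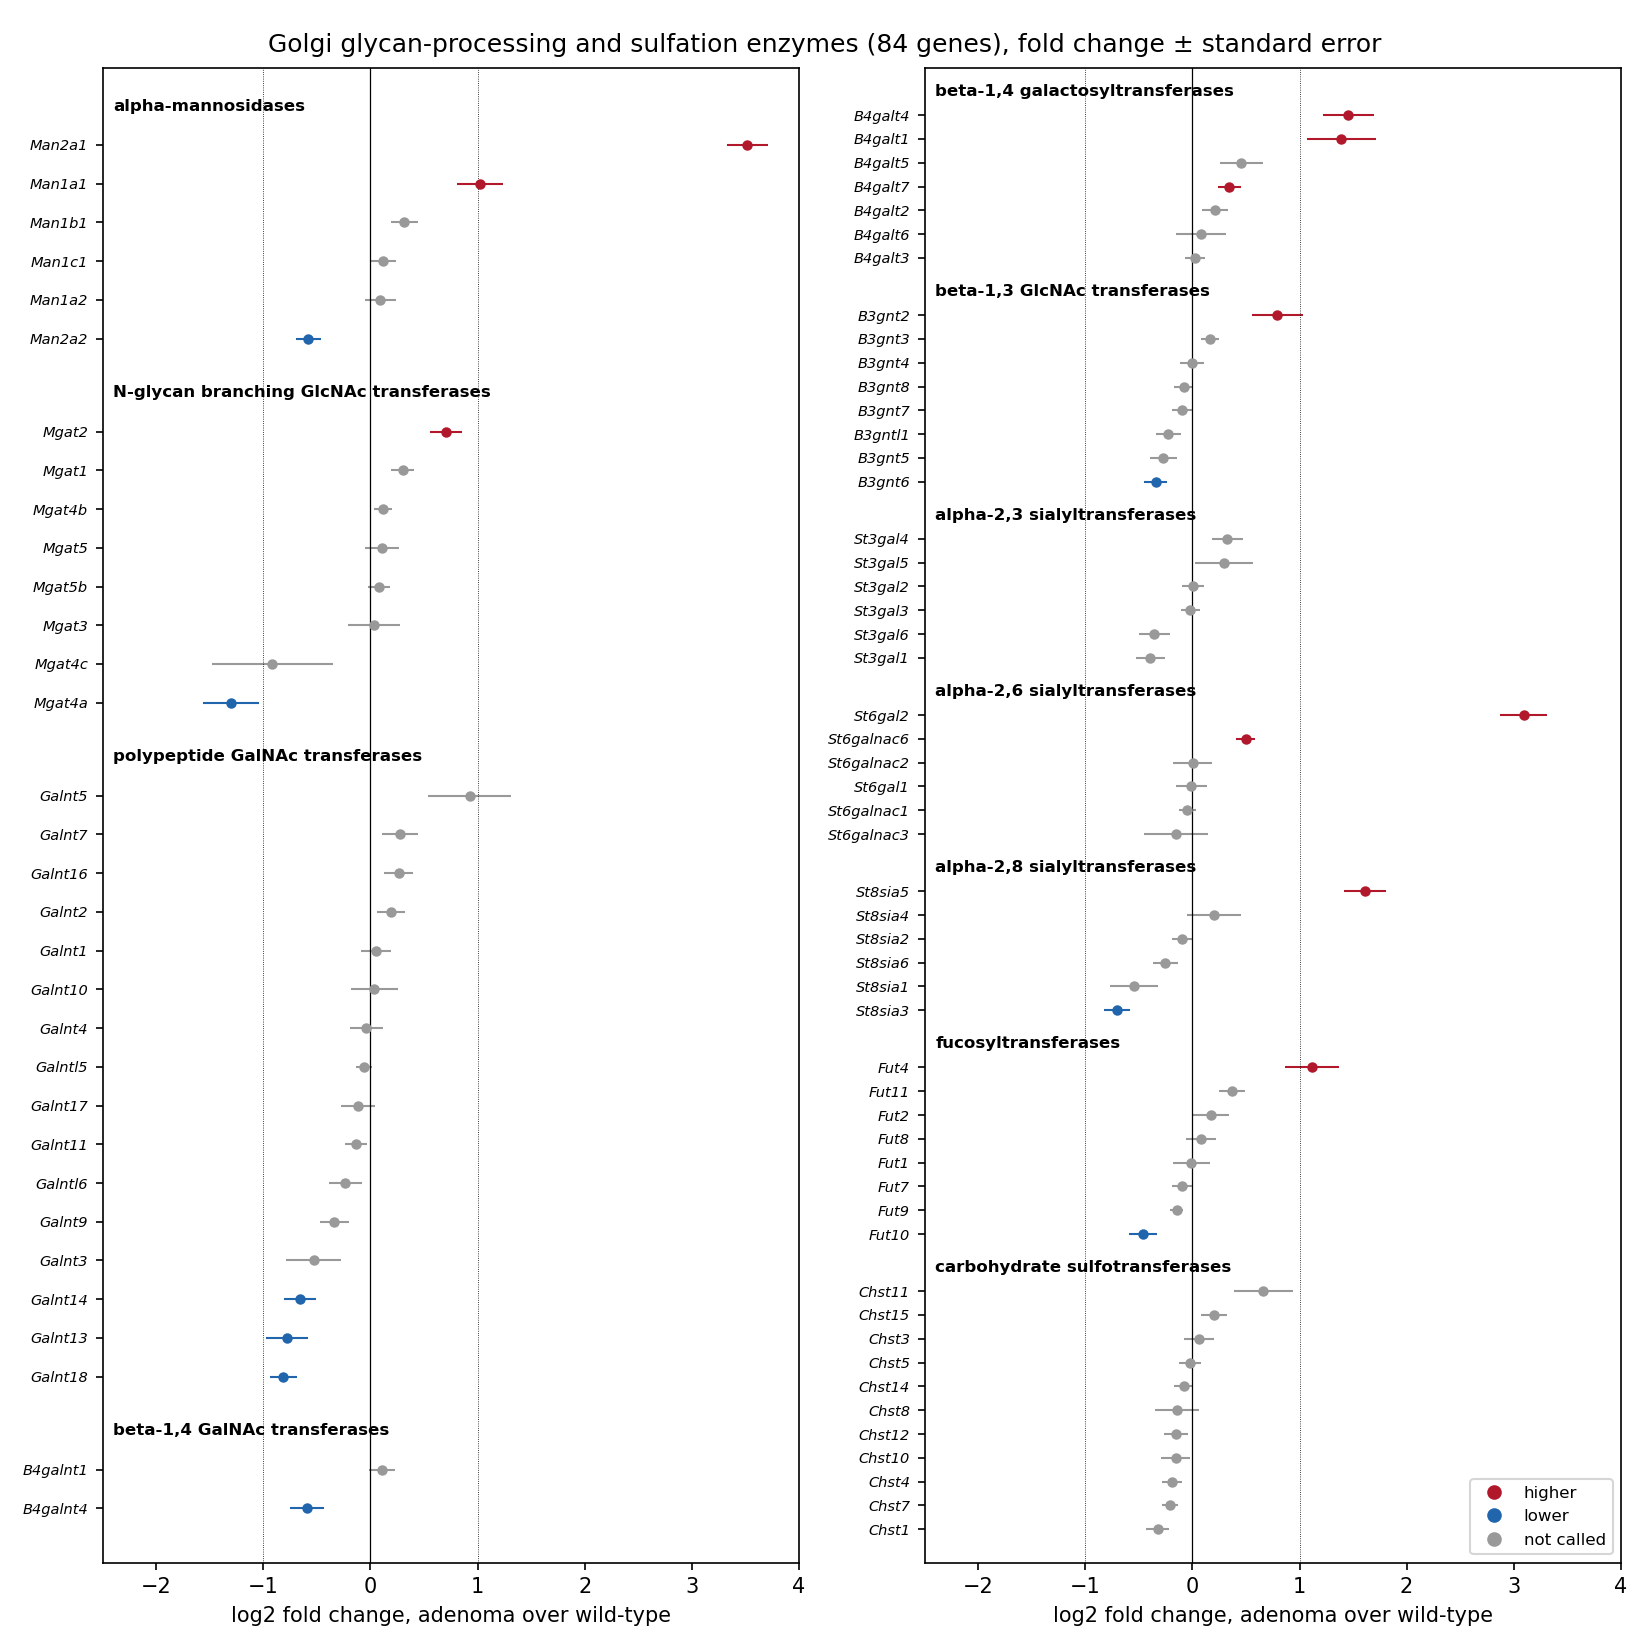
Log2 fold change (adenoma over wild-type) of all 84 enzymes, grouped by family; points are fold changes, bars standard errors, dotted lines 2-fold, red called higher, blue called lower and grey not called. Man2a1 and St6gal2 lie alone above 3, the 7 galactosyltransferases all lie above 0, and no sulfotransferase was called.

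Mannose trimming showed the widest change. Man2a1 encodes Golgi alpha-mannosidase II, which removes the outer mannoses before complex chains can be built. Its wild-type values were 7.26, 7.77, 7.89, 7.08 and 7.27, and the adenomas ran from 10.46 over a median of 11.06 to 11.36. The groups were far apart, with a gap of more than 2 units between the highest wild-type and the lowest adenoma value. Man2a1 was 11.4-fold higher (log2 fold change 3.52, standard error 0.19, adjusted p = 6.13e-08 from limma), the widest change of the 84. Within prefix 08 the log2 fold change was 3.65 and within 09 it was 3.32, and both were called.

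Man2a2 encodes the second Golgi alpha-mannosidase, with the same activity. Its wild-type values were 8.91, 8.86, 9.24, 9.09 and 8.59, and the adenomas ran from 8.10 over 8.35 to 8.70. In 7 of the 9 adenomas it lay below every wild-type value, and the other 2, at 8.60 and 8.70, overlapped the lowest wild-type value. Man2a2 was 1.50-fold lower (log2 fold change -0.58, standard error 0.12, adjusted p = 0.00393). The related enzymes thus changed in opposite directions in the same samples. Levels of different probe sets cannot be compared on arrays, so which of them is more abundant was not asked.

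The mannosidases that act before them, of the Man1 type, trim mannoses from the high-mannose chain. Man1a1 was at 7.38, 6.52, 6.58, 5.78 and 7.19 in wild-type pituitaries and ran from 7.28 over 7.72 to 8.11 in adenomas. The wild-type values were widely spread, and 8 of the 9 adenomas lay above all of them. Man1a1 was 2.03-fold higher (log2 fold change 1.02, standard error 0.22, adjusted p = 0.00514). Man1b1 (0.32), Man1c1 (0.12) and Man1a2 (0.09) were not called.

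Since the Golgi mannosidase II genes moved apart, the stretches just before their start sites are shown, as RefSeq places these on the rat build GRCr8. Each line gives the 250 bases before the start, 5′ to 3′ on the strand of the gene. Capitals mark GGGCGG (the GC box), CCAAT and AGGTCA (the half-site that nuclear receptors such as SF-1, the gonadotroph factor, bind), searched on both strands. Man2a1 lies at chr9:111698663-111698912 on the plus strand, and Man2a2 at chr1:143736563-143736812 on the minus strand.
Man2a1: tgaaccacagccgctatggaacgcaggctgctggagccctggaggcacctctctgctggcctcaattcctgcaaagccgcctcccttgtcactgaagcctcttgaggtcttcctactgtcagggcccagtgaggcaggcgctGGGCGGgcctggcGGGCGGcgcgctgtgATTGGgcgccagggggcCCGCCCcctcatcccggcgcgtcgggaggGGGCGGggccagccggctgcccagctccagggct
Man2a2: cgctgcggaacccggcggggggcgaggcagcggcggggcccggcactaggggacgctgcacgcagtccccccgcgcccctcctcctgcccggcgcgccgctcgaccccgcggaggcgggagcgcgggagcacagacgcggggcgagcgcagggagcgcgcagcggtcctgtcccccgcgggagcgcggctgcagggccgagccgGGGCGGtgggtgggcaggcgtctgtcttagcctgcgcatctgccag
The Man2a1 stretch held 4 GC boxes and 1 CCAAT, with 17 CG pairs, and the Man2a2 stretch held 1 GC box and no CCAAT, with 38 CG pairs. Neither held AGGTCA. Of all 33469 promoters in the table, 30.5% held a GC box, 34.0% a CCAAT and 14.1% an AGGTCA in this window, and the longer SF-1 site CAAGGTCA, which contains the half-site, stood in 1.33%. The table holds 69 of the 84 enzymes and 16 of the 20 called ones. Of the 69, 41 held a GC box, 23 a CCAAT and 9 an AGGTCA, and of the 16, 13 held a GC box, 9 a CCAAT and 0 an AGGTCA. For each enzyme the first promoter listed was read, while the percentages are over every promoter in the table. The counts and the percentages are therefore not like for like. A match of letters is a description only, and its absence from this window says nothing of a factor's binding elsewhere.

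Of the branching enzymes, 1 was called higher and 1 lower. Mgat2, which starts the second antenna of complex N-glycans, had wild-type values of 9.05, 9.25, 8.48, 8.24 and 8.76, and the adenomas ran from 9.12 over 9.43 to 9.76. All adenomas but one lay above the wild-type range. Mgat2 was 1.63-fold higher (log2 fold change 0.71, standard error 0.15, adjusted p = 0.00553), with 0.31 within prefix 08 and 0.97 within 09, the first not called.

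Mgat4a adds a further antenna by a beta-1,4 branch, and was the only enzyme over 2-fold lower. Its wild-type values were 7.34, 8.72, 8.43, 8.12 and 6.91, and the adenomas ran from 6.03 over 6.74 to 7.09. The wild-type group was broad, and the adenomas lay below all of it in 8 of 9. Mgat4a was 2.46-fold lower (log2 fold change -1.30, standard error 0.26, adjusted p = 0.00412), and its other probe set gave -1.18 (adjusted p = 0.00388). Mgat1, which starts the first antenna, was at a log2 fold change of 0.30 and was not called (adjusted p = 0.0625), nor were Mgat3, Mgat4b, Mgat5 and Mgat5b, between 0.03 and 0.12. Mgat4c, at -0.92 with a standard error of 0.56, varied too widely for a call.

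Galactose addition by the B4galt enzymes was called in the higher direction only. All 7 B4galt enzymes had log2 fold changes above 0, from 0.02 to 1.45, and 3 were called higher. Of all 14506 genes, 7000 had a log2 fold change above 0 and 12.1% were called higher. B4galt4 was at 7.33, 7.45, 7.18, 7.10 and 7.01 in wild-type pituitaries and from 7.79 over 8.62 to 9.26 in adenomas. Every adenoma lay above every wild-type pituitary. B4galt4 was 2.74-fold higher (log2 fold change 1.45, standard error 0.24, adjusted p = 0.00101). The adenomas of 7 and 8 months, at 7.91 and 7.79, were its lowest values.

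B4galt1, the main galactosyltransferase of N-glycans, was at 6.09, 7.22, 6.88, 6.89 and 6.11 in wild-type pituitaries and from 6.72 over 8.36 to 8.78 in adenomas. Adenoma 6, at 6.72, lay within the wild-type range, and the other 8 lay above it. B4galt1 was 2.62-fold higher (log2 fold change 1.39, standard error 0.32, adjusted p = 0.00845). B4galt7, which adds galactose to the linker of proteoglycans, was 1.27-fold higher (log2 fold change 0.34, adjusted p = 0.0415), a call kept in 3 of the 14 fits that left out 1 sample number, those without wild-type pituitary 2 or 5 or adenoma 2, and lost in the other 11 (0.27 to 0.36). B4galt5 (0.46), B4galt2 (0.21), B4galt6 (0.08) and B4galt3 (0.02) were not called.

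**Figure D2:**
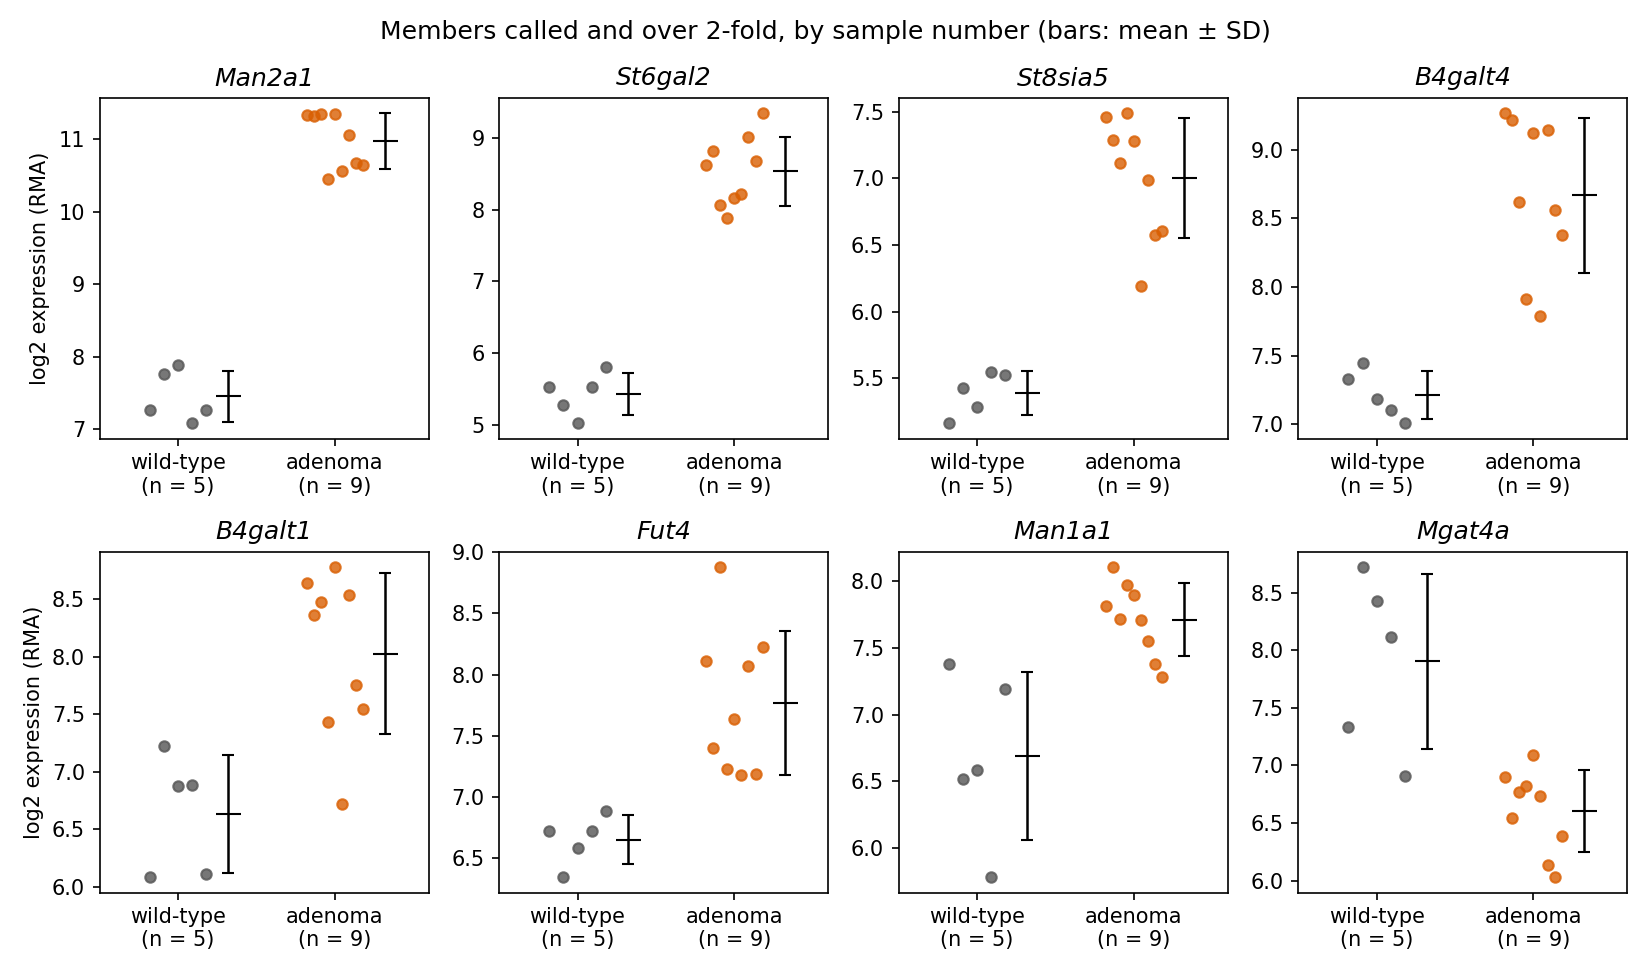
Log2 expression of the 8 enzymes that were called and over 2-fold, with 1 point per sample number (5 wild-type pituitaries, 9 adenomas, in the order of their numbers) and bars for the mean and SD; each panel has its own scale. The groups are separate for Man2a1, St6gal2, St8sia5, B4galt4 and Fut4, 1 adenoma overlaps for B4galt1, Man1a1 and Mgat4a, and Mgat4a alone is lower in adenomas.

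Among the enzymes that lengthen chains by GlcNAc, B3gnt2, which makes poly-N-acetyllactosamine, was called higher. It was at 8.51, 9.11, 8.17, 8.94 and 7.72 in wild-type pituitaries and from 8.71 over 9.25 to 9.87 in adenomas, and 5 of the 9 adenomas lay above the wild-type range. B3gnt2 was 1.73-fold higher (log2 fold change 0.79, standard error 0.24, adjusted p = 0.0336), but it lost its call where any of wild-type pituitaries 3 and 5 and adenomas 1, 2, 3 and 5 was left out (log2 fold changes from 0.60 to 0.77). B3gnt6, which makes the core 3 O-glycan, was 1.27-fold lower (-0.34, adjusted p = 0.0396), and kept its call in 4 of these 14 fits, those that left out wild-type pituitary 2, wild-type pituitary 3, adenoma 6 and adenoma 7 (in the other 10, -0.34 to -0.28). Of the other 6, none was called.

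Sialic acid caps are described by linkage. St6gal2 encodes an alpha-2,6 sialyltransferase that caps galactose. Its wild-type values were 5.53, 5.28, 5.03, 5.53 and 5.81, and the adenomas ran from 7.88 over 8.63 to 9.34. No values overlapped, and the gap between the groups was more than 2 units. St6gal2 was 8.52-fold higher (log2 fold change 3.09, standard error 0.22, adjusted p = 1.34e-06). It was called within prefix 08 (2.90) and within 09 (3.35). Man2a1 and St6gal2 were the only enzymes called under each of the 29 alternative settings.

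St6gal1, the more widely studied enzyme of the same linkage, was at 8.84, 8.53, 8.95, 8.49 and 8.01 in wild-type pituitaries and from 8.18 over 8.57 to 8.86 in adenomas. All adenoma values lay inside the wild-type range. The difference was -0.01 on the log2 scale with a standard error of 0.14 (adjusted p = 0.966), and its sign depended on the setting. For these related enzymes the stretches before the start are shown as above, St6gal2 at chr9:9509332-9509581 on the plus strand and St6gal1 at chr11:91040405-91040654 on the minus strand of GRCr8.
St6gal2: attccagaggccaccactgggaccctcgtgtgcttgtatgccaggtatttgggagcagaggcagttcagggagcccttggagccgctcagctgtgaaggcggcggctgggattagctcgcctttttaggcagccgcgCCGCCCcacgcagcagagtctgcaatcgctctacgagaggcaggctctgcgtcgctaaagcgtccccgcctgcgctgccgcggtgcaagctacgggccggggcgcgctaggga
St6gal1: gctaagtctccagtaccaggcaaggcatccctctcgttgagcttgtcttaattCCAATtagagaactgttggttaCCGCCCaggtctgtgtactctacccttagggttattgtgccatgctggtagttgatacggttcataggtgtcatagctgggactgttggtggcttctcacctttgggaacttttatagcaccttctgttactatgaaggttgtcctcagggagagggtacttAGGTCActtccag
The St6gal2 stretch held 1 GC box and 22 CG pairs. The St6gal1 stretch held 1 GC box, 1 CCAAT and 1 AGGTCA, but only 3 CG pairs, beside a median of 5 over all promoters of the table.

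Of the St6galnac enzymes, whose symbols share this beginning and which place sialic acid on GalNAc, St6galnac6 was called. It acts on gangliosides and O-glycans. Its wild-type values were 7.23, 7.34, 6.99, 7.17 and 7.06, and the adenomas ran from 7.44 over 7.67 to 7.95. The change was small but the groups did not overlap. St6galnac6 was 1.41-fold higher (log2 fold change 0.50, standard error 0.088, adjusted p = 0.00164). St6galnac1, St6galnac2 and St6galnac3 were between -0.15 and 0.00 and were not called.

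No alpha-2,3 sialyltransferase was called by limma, with 3 of 6 at an unadjusted p under 0.05, while the methods' t-test, over lesions that are not independent, called 1, St3gal1, lower. In the limma fit St3gal1 was at -0.39 (adjusted p = 0.0594). St3gal3 was at -0.02 (standard error 0.088, adjusted p = 0.899), St3gal4 at 0.33 (0.14, adjusted p = 0.131) and St3gal6 at -0.36 (0.14, adjusted p = 0.0994). St3gal4 lay above the wild-type range in 6 of 9 adenomas, and St3gal6 lay below it in 4. With the prefix as a block St3gal4 was called (0.38, adjusted p = 0.0411), and St3gal6 was called without wild-type pituitary 5 (-0.46, adjusted p = 0.0479).

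Alpha-2,8 sialyltransferases add sialic acid to sialic acid, mostly on gangliosides or as polysialic acid. St8sia5, an enzyme of complex gangliosides, was at 5.16, 5.43, 5.29, 5.54 and 5.53 in wild-type pituitaries and from 6.19 over 7.12 to 7.49 in adenomas. The wild-type values were tight and low, and the adenomas all lay above them. St8sia5 was 3.05-fold higher (log2 fold change 1.61, standard error 0.19, adjusted p = 1.44e-04). Within prefix 08 it was 2.03 and within 09 1.14, both called. The difference between the prefixes was not tested.

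St8sia3 moved the other way. Its wild-type values were 9.88, 10.11, 10.21, 9.83 and 9.60, and the adenomas ran from 8.88 over 9.21 to 9.66. Adenoma 4, at 9.66, overlapped the wild-type range and the other 8 lay below it. St8sia3 was 1.63-fold lower (log2 fold change -0.71, standard error 0.12, adjusted p = 0.00131). St8sia2 and St8sia4, the polysialic acid synthases, were at -0.09 and 0.20 and were not called. St8sia1, the synthase of ganglioside GD3, was at -0.54 (adjusted p = 0.103).

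**Figure D3:**
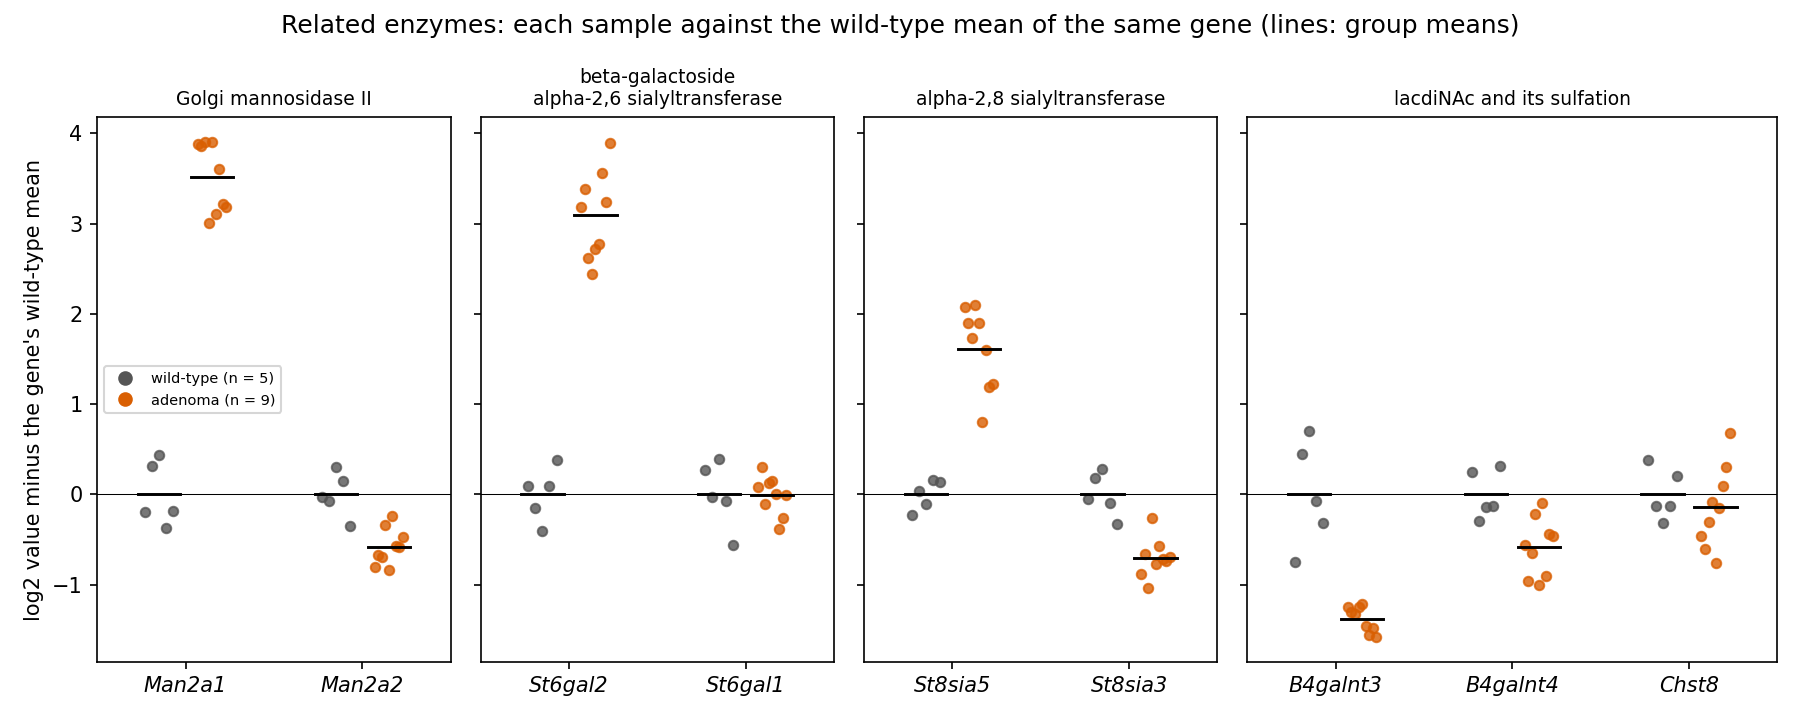
Each sample's log2 value minus the wild-type mean of the same gene for related enzymes (grey: 5 wild-type pituitaries, orange: 9 adenomas, lines: group means). Man2a1, St6gal2 and St8sia5 rise by 3.52, 3.09 and 1.61, while Man2a2 and St8sia3 fall by 0.58 and 0.71, St6gal1 stays at -0.01, and of the lacdiNAc enzymes B4galnt3 (-1.38) and B4galnt4 (-0.59) fall and Chst8 overlaps.

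The enzymes of the pituitary lacdiNAc ending were lower or not called. B4galnt4 was at 7.32, 6.78, 6.93, 6.94 and 7.38 in wild-type pituitaries and from 6.06 over 6.51 to 6.97 in adenomas. In 7 of 9 adenomas it lay below every wild-type value, and adenomas 4 and 6, the youngest, overlapped the range. B4galnt4 was 1.50-fold lower (log2 fold change -0.59, standard error 0.16, adjusted p = 0.0194), and without wild-type pituitary 5 it was at -0.51 and not called. Chst8, which sulfates lacdiNAc, was at 7.69, 7.18, 6.99, 7.18 and 7.51 in wild-type pituitaries and from 6.54 over 7.16 to 7.99 in adenomas. The adenomas spread on both sides of the wild-type range, 3 below and 1 above it. Chst8 differed by -0.14 on the log2 scale (standard error 0.21, adjusted p = 0.667), with -0.57 within prefix 08 and 0.31 within 09, neither called.

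B4galnt3, the other lacdiNAc enzyme, has no symbol in the annotation and is not among the 84. Its probe set could be named only through a list that the study chose on these samples, which is no independent evidence of its direction. It was at 6.15, 7.35, 7.59, 6.82 and 6.57 in wild-type pituitaries and from 5.31 over 5.57 to 5.68 in adenomas. The adenomas were tightly grouped below every wild-type value, at 2.60-fold lower (log2 fold change -1.38, standard error 0.18, adjusted p = 2.75e-04). Chst9 was not analysed here. Among hormones that carry this ending, Lhb, Tshb and Pomc were lower, by log2 fold changes of -2.24 (adjusted p = 1.83e-04), -3.75 (0.00459) and -3.75 (8.57e-04), and the shared alpha subunit Cga was higher at 0.91 (1.09e-04). Fshb was at -2.38 (adjusted p = 0.0161), and at -2.07 without wild-type pituitary 3, where it was not called. Within prefix 08 neither Fshb nor Tshb was called, and Fshb was not called within 09 either.

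Fucosylation was called for one enzyme in each direction. Fut4, an alpha-1,3 fucosyltransferase that makes Lewis x, was at 6.72, 6.35, 6.58, 6.72 and 6.88 in wild-type pituitaries and from 7.18 over 7.64 to 8.88 in adenomas. All adenomas lay above the wild-type range, the nearest at 7.18. Fut4 was 2.17-fold higher (log2 fold change 1.12, standard error 0.25, adjusted p = 0.00707). Fut10 was 1.37-fold lower (log2 fold change -0.46, adjusted p = 0.0262), with 4 of 9 adenomas below the wild-type range, and was no longer called with wild-type pituitary 2, 3 or 4 left out (-0.45 to -0.40). Fut8, which adds the core fucose of N-glycans, was at 0.08 (adjusted p = 0.733), and Fut11 at 0.37 (adjusted p = 0.0533).

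The 16 Galnt enzymes, which start O-glycans, held 3 lower calls and none higher, beside 9.7% of all genes called lower and 12.1% called higher. Galnt18 was at 6.82, 7.44, 7.44, 6.98 and 6.94 in wild-type pituitaries and from 6.03 over 6.33 to 6.62 in adenomas. It was the only one of the 84 with all 9 adenomas below all wild-type values. Galnt18 was 1.76-fold lower (log2 fold change -0.81, standard error 0.13, adjusted p = 7.19e-04), and was called within prefix 08 (-0.92) and within 09 (-0.69).

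Galnt13 was at 5.26, 6.31, 6.16, 5.87 and 5.29 in wild-type pituitaries and from 4.70 over 4.95 to 5.82 in adenomas. Adenoma 2, at 5.82, lay within the wild-type range and far from the other 8, which lay below it. Galnt13 was 1.71-fold lower (log2 fold change -0.78, standard error 0.20, adjusted p = 0.0136). Galnt14 was 1.58-fold lower (-0.66, adjusted p = 0.0080), with 8 of 9 adenomas below the wild-type range. Galnt5 was higher by 0.92 in the means, with wild-type values from 5.88 to 8.52, and was not called (adjusted p = 0.108). The broadly acting Galnt1 and Galnt2 were at 0.05 and 0.19 and were not called. Galnt12, also named only through the study's list and not among the 84, was 1.91-fold higher (log2 fold change 0.93, adjusted p = 0.00444).

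None of the 11 sulfotransferases was called by limma, with 3 at an unadjusted p under 0.05, nor by the methods' t-test over single lesions. Their log2 fold changes ran from -0.32 to 0.66, with a median of -0.14 and 3 above 0. Chst11, which sulfates chondroitin, had the widest difference, at 8.29 ± 0.53 in wild-type pituitaries and 8.95 ± 0.56 in adenomas (SD, n = 5 and 9, adjusted p = 0.109). Chst1, which sulfates galactose of keratan sulfate, came closest to a call at -0.32 (adjusted p = 0.0501). Over all families, 3 enzymes (B3gnt5, Fut9 and Galntl5) lay below the lower quartile of all values, 4.96, in both groups, so a change in them could hardly be seen.

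The lesions taken singly showed how far enzymes varied within a sample number. Over the 5 numbers with 2 or 3 lesions, the SD among lesions had a median of 0.164 over the 84 enzymes, beside an SD of 0.223 over the 9 adenoma values, and was the smaller of the pair in 60. The widest gaps between lesions of one number belonged to B4galt1 (2.76), St6gal2 (2.30) and Fut4 (2.02), all through lesion 5 of adenoma 3.

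In lesion 5, B4galt1 was at 10.16, beside 7.39 and 7.89 in the other lesions of adenoma 3 and a range of 6.72 to 9.01 over the other 15 lesions. Fut4 was at 10.22, beside 8.20 and 8.21, and a highest value of 8.35 elsewhere. St6gal2 was at 6.67, beside 8.53 and 8.97, and a lowest value of 7.88 elsewhere. So lesion 5 held the highest B4galt1 and Fut4 and the lowest St6gal2 of all lesions, while its Man2a1, at 11.57, was close to the highest value elsewhere, 11.54. St3gal6, at 7.06 beside 5.72 and 5.79, also stood above all others.

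Over 2-fold from the mean of its companions were 4 of the 84 enzymes and 877 of all probe sets in lesion 5, while these companions differed from each other over 2-fold in 1 enzyme and 280 probe sets. The mean level of the gonadotroph markers was 9.14 in lesion 5 and 9.59 in both companions, within the 9.01 to 10.07 of the other 15. That of the pericyte and fibroblast markers was 6.96, below the 7.17 to 7.94 of the other 15. The mean of the 22 other sugar transferases, listed further on, was 7.53, also below the range of the other 15, 7.60 to 7.84. Macrophage markers, at 7.59, lay within the range of the others. Their part in these values was not tested. Without lesion 5 the log2 fold changes of B4galt1, Fut4 and St6gal2 were 1.30, 1.04 and 3.17, all called.

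**Figure D4:**
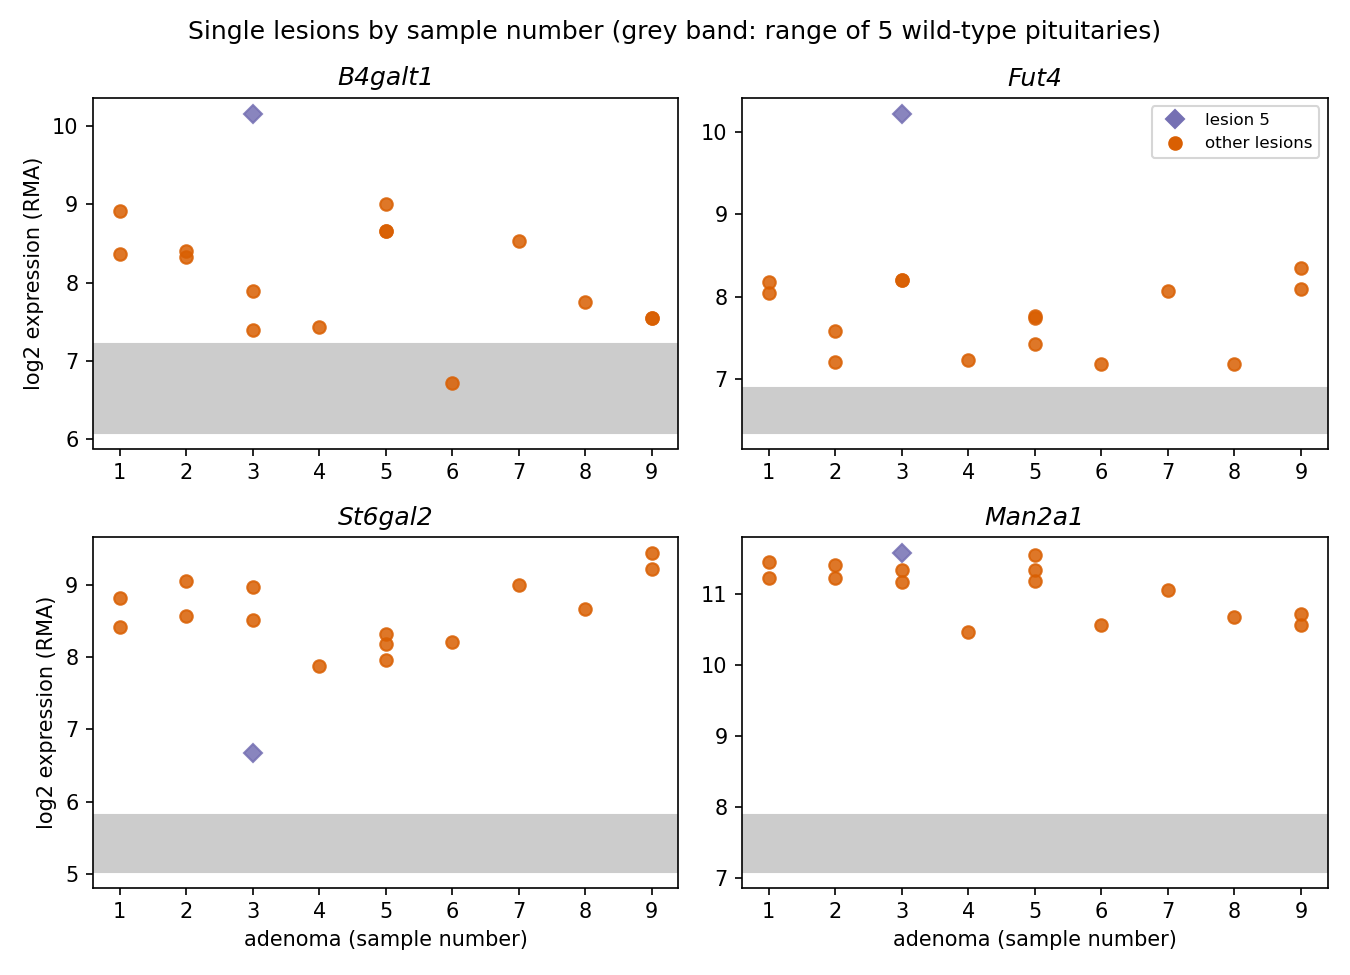
Log2 expression of B4galt1, Fut4, St6gal2 and Man2a1 in each of the 16 lesions, placed by the 9 sample numbers; the grey band is the range of the 5 wild-type pituitaries and the diamond is lesion 5. Lesion 5 is highest for B4galt1 (10.16) and Fut4 (10.22) and lowest for St6gal2 (6.67), and is close to the highest of the others for Man2a1 (11.57).

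Sex and age gave no calls among the 84. As an interaction of sex with group, 0 enzymes and 0 of all probe sets passed limma's adjusted p of 0.05, and 11 enzymes (13.1%, beside 6.78% of all probe sets) had an unadjusted p under 0.05. The lowest p belonged to Man1a1, with a log2 fold change of 0.33 in females and 1.61 in males (adjusted p = 0.312). Mgat4a, also among them, was at -0.62 in females and -1.62 in males (adjusted p = 0.598). All 4 adenomas of prefix 09 are from females, so sex and prefix are partly joined. As a slope over the age of the 9 adenomas, 0 enzymes were called, beside 0.00342% of all probe sets, and 16 (19.0%, beside 11.8%) had an unadjusted p under 0.05. Among them, B4galnt1 rose by 0.12 a month (adjusted p = 0.137), St6gal2 by 0.17 (0.343) and B4galt4 by 0.20 (0.325), while Mgat4c was at -0.48 a month (0.142), none of which passed the test. With the adenomas of 7 and 8 months alone (n = 2), all 20 called enzymes kept their sign, and Man2a1 (3.05) and St6gal2 (2.61) were still called.

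Other steps of glycan assembly and breakdown, some of them also in the Golgi, were read from lists of genes. Of 174 such genes, 64 were called higher (36.8%) and 6 lower (3.45%) in adenomas, beside 12.1% and 9.7% of all genes. All lower calls lay in the lists of other sugar transferases and of heparan and chondroitin sulfate assembly. With 10 carriers of pituitary glycans, mostly hormones, the counts were 65 and 10 of 184. This higher count fell to 41 without wild-type pituitary 3 and to 35 without wild-type pituitary 4, and was 7 within prefix 08 and 44 within 09.

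The enzymes and transporters that supply sugar and sulfate donors were called higher in 15 of 34 and lower in 0. Examples are Slc35a3, the UDP-GlcNAc transporter (0.89), Mpi, which makes mannose-6-phosphate (0.79), and Pmm1, a phosphomannomutase (0.70). Slc35b1 (0.67) was also counted in this list, although it may not carry such a donor. Slc35b2, the carrier of the sulfate donor, was at 0.64 (adjusted p = 2.01e-04) with all 9 adenomas above the wild-type range. N-glycan transfer and trimming in the endoplasmic reticulum was called higher in 20 of 34 and lower in 0, led by Alg5, which makes dolichol-phosphate-glucose (1.08), Rpn2 of the oligosaccharyltransferase (0.70), Lman1, a cargo lectin (0.70), and Alg1, which adds the first mannose (0.66). These shares were 44.1% and 58.8%, beside the 12.1% of all genes. Within prefix 08 the donors had 3 calls and the endoplasmic reticulum list 0, and within 09 they had 8 and 16. The list medians of the log2 fold change were 0.29 and 0.39, beside -0.0346 over all probe sets and -0.0099 over all genes. Without wild-type pituitary 3 the donors had 7 calls, and without wild-type pituitary 4 they had 7 and the endoplasmic reticulum list 12.

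Other sugar transferases, not all of them in the Golgi, were called higher in 9 and lower in 3 of 22. These shares were 40.9% and 13.6%, beside 12.1% and 9.7% of all genes. B3galt2 and B3galt5, which add galactose in beta-1,3 linkage, were at 2.57 (adjusted p = 3.92e-04) and 2.27 (6.18e-05), with all 9 adenomas above the wild-type range for both. B3galt6, which builds the proteoglycan linker, was at 0.89, and B3galt1 was lower at -1.04. A4galt, the synthase of the glycolipid Gb3, was at -0.48 and Ogt, which adds GlcNAc to nuclear and cytosolic proteins, at -0.56. Heparan and chondroitin sulfate assembly was called in 3 of 30 in each direction (10%), near the shares of all genes. Higher were Ext1 of the heparan sulfate polymerase (0.69), Chpf of the chondroitin polymerase (0.64) and Extl3 (0.52). Lower were Ust (-0.82), a uronyl sulfotransferase, Sulf1 (-0.65) and Hs3st1 (-0.65).

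Lysosomal breakdown of glycans was called higher in 12 of 20 and lower in 0, led by Fuca2, a fucosidase (1.04), Gla, an alpha-galactosidase (0.92), Manba, a beta-mannosidase (0.86), and Neu1, a sialidase (0.86). This share was 60%, beside 12.1% of all genes. The count fell to 5 without wild-type pituitary 4 and to 7 without wild-type pituitary 5, and was 1 within prefix 08 and 10 within 09. Genes of Golgi structure were called higher in 5 of 34, by 0.30 to 0.39, namely Copb1, Tgoln2, Golga7, Cog8 and Cog2, and in 0 lower. The higher share was 14.7%, beside 12.1% of all genes.

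**Figure D5:**
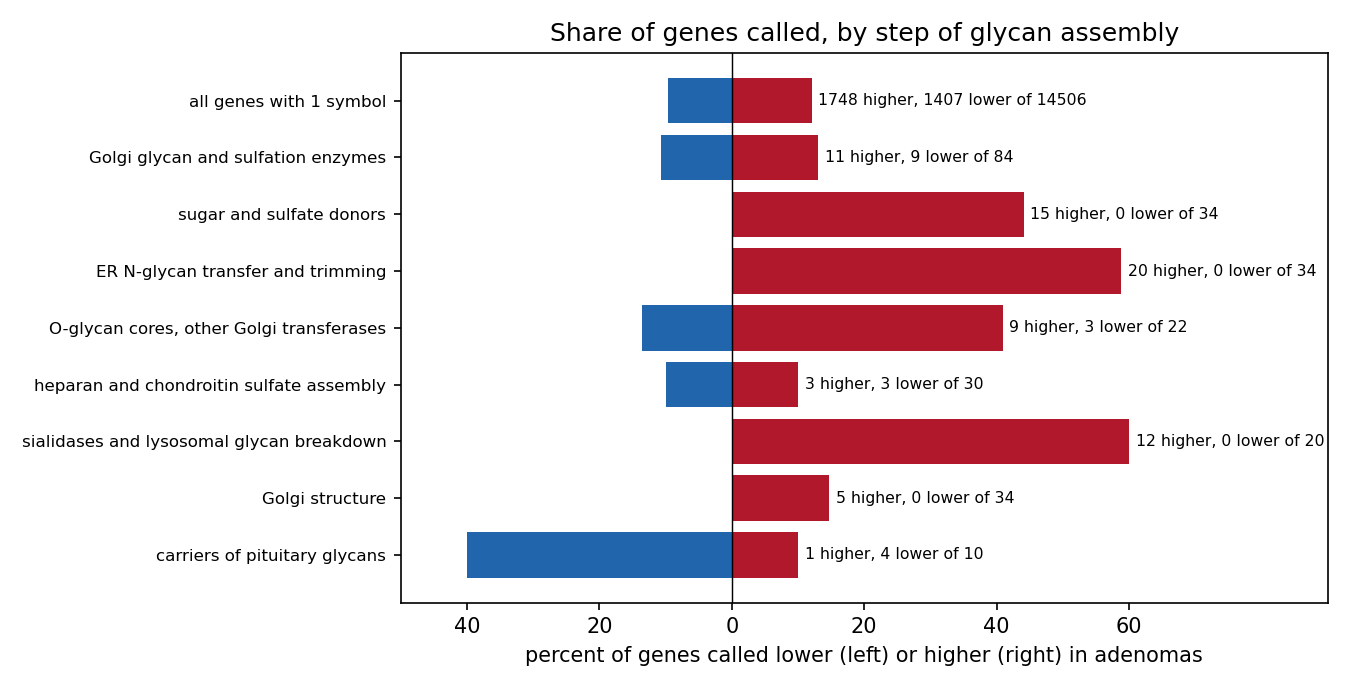
Percent of genes called lower (blue, to the left) or higher (red, to the right) in adenomas for all genes with 1 symbol, the 84 Golgi enzymes and 7 lists of other steps, with the counts beside each bar. The Golgi enzymes, at 11 higher and 9 lower of 84, are near the bar of all genes, while donors, endoplasmic reticulum steps and lysosomal breakdown have calls to the higher side alone.

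Markers of some cell types differed between the groups too, in short lists, beside 12.1% of all genes called higher and 9.7% lower. The median log2 fold changes of lactotroph and thyrotroph markers were near 0, at -0.098 and 0.0016. Those of gonadotrophs were called higher in 3 and lower in 2 of 6, those of somatotrophs lower in 4 of 5, of lactotrophs in 1 of 5, of thyrotrophs in 1 of 4, of corticotrophs in 3 of 4, of melanotrophs in 3 of 5 and of folliculostellate cells in 7 of 9. Pomc and Tbx19 were counted in both the corticotroph and the melanotroph list, so these lists are not separate. The lactotroph call was Angpt1. Macrophage markers were called higher in 8 of 13, with a mean level of 6.21 to 6.81 in wild-type pituitaries and 6.75 to 7.71 in adenomas. Endothelial markers were called higher in 3 of 11, and markers of pericytes and fibroblasts higher in 6 and lower in 3 of 14. The corticotroph marker mean was 7.71 to 8.03 in wild-type pituitaries and 5.69 to 6.98 in adenomas, and that of folliculostellate cells 6.92 to 7.68 and 6.34 to 6.87. The part of these cell types in the changes of the 84 enzymes was not tested.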

How the data were processed

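RNA of 16 pituitary lesions and 5 wild-type pituitaries was measured on 21 arrays. The deposited log2 values were made by the authors with RMA in Affymetrix Expression Console, so background correction and quantile normalization were kept as they were, and these can understate folds of dim genes. Their tool versions are not given in the sources. The number of arrays limits the precision.

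Genes were named from the platform annotation, in which 15310 of 29214 probe sets carry 1 symbol. Lesions with the same sample number were averaged. limma 3.58.1 (R 4.3.3) fitted 1 model per probe set with group as the only term (12 residual and 3.21 prior degrees of freedom), and p-values were adjusted over all probe sets. The labels do not say that sample numbers are separate animals, and the study names more mutant rats than there are numbers, so p-values measure the spread between these samples, which may be technical.

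Statistics were given for called enzymes over 2-fold, the 3 next in each direction, and lacdiNAc and chosen sialyltransferase genes, and of each list up to 4 called genes. Members and lists were chosen with earlier results of these data known. Promoter sequences are from RefSeq, GRCr8. The 29 alternatives include blocks, prefixes, filters, normalizations, tests and left-out samples.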

Additional observations from a re-analysis of the deposited data

Results flagged for a closer look

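Of 62 groups of sample values checked for a lone extreme sample, 2 held one, where chance gives about 1 in 20. Galnt13 had its highest adenoma value in adenoma 2, at 5.82, with the nearest other adenoma at 4.97, and this gap was 0.754 of the range of the group. Adenoma 2 is the mean of 2 lesions, whose Galnt13 values were 6.48 and 5.16. Fut10 had its lowest wild-type value in wild-type pituitary 5, at 7.58, with the nearest at 8.15, and this gap was 0.712 of the range. Without wild-type pituitary 5 the log2 fold change of Fut10 stayed called.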

How the results depend on the processing

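Prefix 08 alone gave 3 enzymes called higher and 2 lower, 3 over 2-fold higher and 0 lower, a median log2 fold change of -0.0469 and 7 and 2 companion genes. Prefix 09 alone gave 4 over 2-fold higher, a median of 0.0378 and 6 companion genes lower. Adenomas of 7 or 8 months alone gave 2 and 0 calls, 2 and 0 over 2-fold, and 2 and 2 companion genes. These fits have fewer samples, and the share of all genes called in them was not counted. Centring the arrays moved the median to 0.0429, and B3gnt6 and Fut10 were then not called. B4galt7 and Cdkn1b were not called with sex as a covariate, nor after quantile normalization. With 1 sample number left out, 9 to 13 enzymes were called higher and 8 to 11 lower, 6 to 8 were over 2-fold higher and 1 to 1 lower, the median ran from -0.0256 to 0.00987, and companion genes from 35 to 76 higher and 8 to 12 lower. Replicate numbers 1 to 5 are shared by both groups but do not pair the samples (correlations -0.0531 to 0.203), and with single lesions and the number as a replicate block, a pair of changes at once, 17 of the 20 calls were kept, Galnt13 (-0.46), Fut10 (-0.29) and B4galt7 (0.31) were not, and Chst8 was called lower (-0.53). Sign changed, with no call, for St6gal1 (0.00702 with a random block, 0.0211 with independent lesions and with the methods' t-test, 0.139 with the replicate block, 0.0430 with sex, 0.0682 at 7 or 8 months, 0.0313 centred, and -0.151 to 0.0852 with 1 number left out), St3gal3 (0.00756 with the prefix as a block, 0.172 for 08, 0.0226 centred, -0.108 to 0.0233 with 1 left out), Chst8 (0.314 for 09) and St3gal6 (0.0161 with the replicate block). The cause was not tested. Leaving out lesion 5, an alternative chosen after seeing the data, changed no count of calls. The other counts of enzymes called stayed within 1.5 times their value, while the lists of donors, endoplasmic reticulum steps and lysosomal breakdown did not within prefix 08, nor donors within 09. What remains limited is precision, with 5 wild-type pituitaries, and dim probe sets.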
